A study of Mus musculus with 12 samples.

Results

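The chromatin methylation and remodelling genes described here are 57 genes of the 21492 in the table. They are the protein-coding genes with a symbol beginning Kmt, Kdm, Setd, Nsd, Chd or Arid followed by a digit, and Adnp, with a value of at least 10 in at least 3 of the 12 libraries. The symbols matched 58 genes, and the remaining one, Arid3c, reached 10 in 1 library and was left out. All 57 members reached 10 in all 12 libraries, so the minimum removed no group's low values among them. Striatal tissue came from C57BL/6J males at postnatal day 70 that were wild type (WT) or Shank3 transgenic (TG), and each of the 4 groups had 3 libraries. Input libraries held RNA of synaptosomes, the pinched-off synaptic endings obtained by homogenizing brain tissue. Polysome libraries held RNA bound to ribosome clusters within that preparation. The labels do not describe the transgene's promoter or line, and they do not say that the libraries of a group came from separate animals. P-values therefore reflect the spread among the libraries, part of which may be technical.

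Methyl groups on histone lysines are written by methyltransferases (many of the Kmt, Setd and Nsd proteins) and removed by demethylases (Kdm proteins). The effect of a methyl group on transcription depends on the lysine. Chd proteins are ATP-driven enzymes that move or eject nucleosomes, and several Arid proteins are DNA-binding subunits of the BAF remodelling complexes. Adnp is a DNA-binding protein that acts with Chd4 and HP1 proteins in the ChAHP complex. Most of these proteins are known to work in the nucleus. Mutations in several of the human genes, among them ADNP, CHD8, ARID1B, KMT2A and SETD5, are known causes of neurodevelopmental disorders. Shank3, the gene carried by the transgene, encodes a scaffold of the excitatory postsynaptic density.

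Values are the authors' normalized estimated counts, and the depth estimated from them was 62.3 to 85.6 M reads in the input libraries, compared with 76.9 to 102 M in the polysome libraries. The members together took 0.161% to 0.221% of the summed value of an input library and 0.157% to 0.232% of a polysome library, so this share overlapped between fractions. The summed values were 95.5 to 113 M in the input and 62.2 to 74.3 M in the polysome libraries. Differences between fractions given below are on the authors' normalized scale and are not differences in the share of a library. Mitochondrial ribosomal RNA took 39.1% to 46.8% of an input library, compared with 23.1% to 34.0% of a polysome library. Shank3 had 2121, 4162 and 5858 in the WT input libraries and 5456, 17500.5 and 14107 in the TG input libraries, so the groups overlapped. It had 1501, 3702 and 5848 in WT polysome and 5012, 12626 and 12252 in TG polysome libraries, which overlapped as well. Its log2 difference between genotypes was 1.57 ± 0.49 (SE) in input and 1.53 ± 0.52 in polysome libraries, with limma adjusted p-values of 1.00 in both, and 0.0631 and 0.0205 with a replicate block. Markers of medium spiny neurons, the main striatal cell type, were all detected, and summed to 149983 to 335690 in the input libraries and 173293 to 425132 in the polysome libraries. RNA of other cell types was present as well. In the input libraries, 5 oligodendrocyte markers summed to 206089 to 352789, 5 microglial markers to 17231 to 28575 and 5 erythroid markers to 3906 to 8199.

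Levels within the set spanned a wide range. Per kb of exonic length, the highest mean values in WT input were those of Setd3 at 1838 ± 372 per kb, Chd4 at 1697 ± 219 and Chd3 at 1602 ± 493 (SD, n = 3). Setd3 is known as an actin histidine methyltransferase, and Chd3 and Chd4 are the ATPases of the NuRD complex. These 3 means lay within the spread of one another, and Setd3 shares 21.9% of its 31-base words with other genes in all. Chd5, a neuronal Chd protein, followed at 845 ± 200 per kb, and the H3K36 methyltransferase Nsd1 at 716 ± 95.4 per kb. The lowest were Setd4 at 15.6 ± 2.00 per kb, Arid3b at 15.8 ± 6.23 and Arid5a at 19.7 ± 3.28. Of these, the means of Setd4 and Arid3b lay within one another's spread. The highest mean per kb was 118-fold the lowest.

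In WT, most members had lower normalized values in polysome than in input RNA. Of the 57, 24 were lower and 1 was higher at a limma adjusted p under 0.05, which is 25 called against 14% of all 16962 genes tested (8.59% lower and 5.36% higher). The median log2 difference, polysome minus input, was -0.57 over the members and 0.026 over all genes tested, and 53 members had a negative difference. In TG, 28 members were lower and 1 was higher, against a background of 18.1% called (9.86% lower, 8.19% higher), with a median of -0.67 against 0.030 over all genes. All 3 polysome values lay below all 3 input values for 38 members in WT, where 18.5% of all genes did, and for 32 members in TG, where 18% did. They lay above for 2 members in WT (background 17.7%) and 3 in TG (17.6%). The labels give the libraries numbers from 1 to 3 in each group, and same-numbered libraries deviated together. In same-numbered pairs the median difference over the members was -0.47, -0.51 and -0.81 in WT, and for TG it was -0.47, -0.55 and -0.86. Over all genes tested the median was 0.00038, 0.024 and 0.019 in WT, and 0.029, 0.0081 and 0.025 in TG. Over those 6 pairs, 43 members were lower in every pair and 2, Setd4 and Setd7, were higher in every pair. The share of all genes lower or higher in every pair was not counted. The count of called members in WT was 14 without input library 2, 11 without input library 3 and 15 without polysome library 3. In TG it was 18 without input library 2, 17 without input library 3, and 17 and 16 without polysome libraries 1 and 3.

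**Figure D1:**
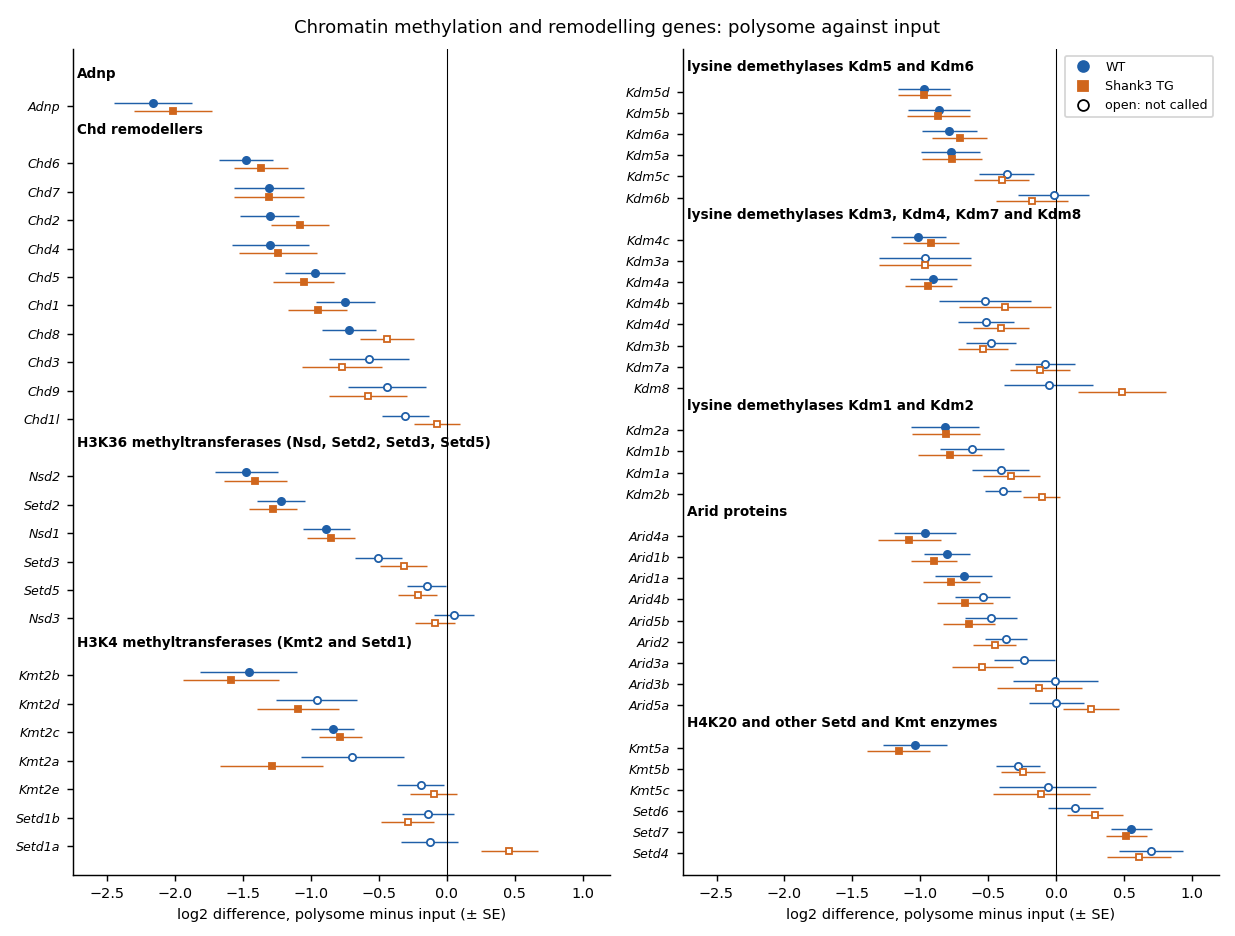
Log2 difference of polysome minus input (x axis, log2 of normalized estimated count + 1, bars show SE) for the 57 members, grouped by role, in WT (circles) and Shank3 TG (squares), from 3 libraries a group; filled symbols passed a limma adjusted p under 0.05. Most points lie left of 0, Adnp is farthest left at -2.16 in WT, and Setd7 is the member called to the right.

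Adnp had the largest difference of the set and also the value least separable from a neighbour. It had 1388, 1627 and 1303 in WT input and 275, 331 and 359 in WT polysome libraries, so every polysome library was far below every input library. The log2 difference was -2.16 ± 0.29 (limma adjusted p = 0.00125). In TG it had 729, 1968 and 1552 in input and 323, 303 and 344 in polysome libraries, a log2 difference of -2.01 ± 0.29 (limma adjusted p = 0.00173). On GRCm38, Adnp lies at chr2:168180986-168207112 on the minus strand. A second gene of the table, Gm20716, spans chr2:168180986-168230364 on the same strand and has 1 annotated transcript, of the nonsense-mediated decay class. That transcript has 12 exons. Its last 3 are exons of Adnp, and its earlier exons overlap those of Dpm1, a subunit of the dolichol-phosphate mannose synthase, at chr2:168209048-168230591. Of the 5350 exonic bases of Adnp, 4393 are shared with Gm20716, including all 3324 coding bases, and 81.2% of its 31-base words occur in other genes.

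The Gm20716 transcript and 2 Adnp transcripts differ in the exon joined to the shared exon that holds the Adnp start codon. Their 3 junctions are shown because a read over one of them tells the genes apart, while a read in the coding sequence does not. Other annotated Adnp transcripts are not shown. Lower case marks the last 12 bases of the upstream exon, and capitals mark the first 12 bases of the shared exon (chr2:168189383-168189394, minus strand), in which ATG is the start codon. The sequences are from GENCODE M21 and read 5′ to 3′.
Adnp-201: caattcacaccgAAACTATGTTCC
Adnp-202: ggccgagccaagAAACTATGTTCC
Gm20716-201: catgagccaaagAAACTATGTTCC

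Gm20716 had higher values than Adnp in all 12 libraries and was not called. It had 5743, 4994 and 5125 in WT input and 6232, 5541 and 5654 in WT polysome libraries, with overlapping groups and a log2 difference of 0.14 ± 0.18 (limma adjusted p = 0.659). In the TG libraries it had 6228, 3828 and 4026 in input and 5927, 5883 and 5294 in polysome libraries. Adnp was 19.5% to 24.6% of the sum of both genes in WT input and 4.23% to 5.97% in WT polysome libraries, and 10.5% to 34.0% and 4.90% to 6.11% in TG. The sum of both genes was 7131, 6620.3 and 6428 in WT input and 6507, 5873 and 6012 in WT polysome libraries. Its log2 difference was -0.13 ± 0.14 in WT (limma adjusted p = 0.555) and -0.015 ± 0.14 in TG (limma adjusted p = 0.956). The fall of Adnp thus held for the value assigned to Adnp and not for the sum of Adnp and Gm20716. Dpm1, whose exons Gm20716 also overlaps, is not in that sum. It had 266, 1026 and 1156 in WT input and 1243, 1288 and 1543 in WT polysome libraries. Its log2 difference was 0.99 ± 0.51 in WT (limma adjusted p = 0.217). How reads were divided between Adnp, Gm20716 and Dpm1 was not tested.

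**Figure D2:**
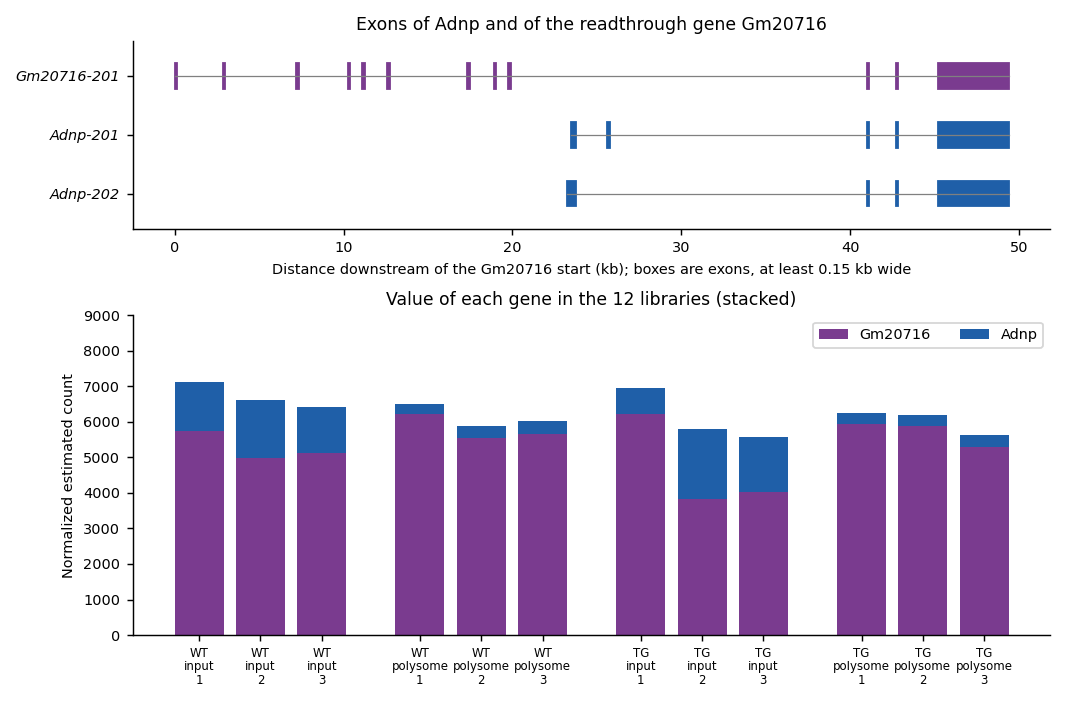
Exons of the Gm20716 transcript and of 2 Adnp transcripts along the locus (upper panel, x axis in kb downstream of the Gm20716 start) and stacked normalized estimated counts of Adnp and Gm20716 in each of the 12 libraries (lower panel). The Adnp part of each bar is smaller in the 6 polysome libraries, while the summed height is 5578 to 7131 in the input and 5639 to 6507 in the polysome libraries.

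The Chd remodellers, the largest role group, held the highest count of called genes among the role groups. In WT, 7 of 10 were lower (median -0.86), and in TG 6 of 10, with none higher. Of all genes tested, 8.59% were called lower in WT and 9.86% in TG, which is the background for each role group below as well. With a trend on coding length removed, as described below, Chd6 was the only Chd gene called in either genotype. Chd6 (chr2:160946978-161109075) had 4829.7, 5819 and 7019 in WT input and 2003, 2379.7 and 1919 in WT polysome libraries, a log2 difference of -1.48 ± 0.20 (limma adjusted p = 0.00125). The TG libraries had 4478, 6216 and 6441 in input and 1959.6, 2637 and 2021 in polysome libraries, a difference of -1.37 ± 0.20 (limma adjusted p = 0.00179). The fractions did not overlap in either genotype. Chd7, mutated in human CHARGE syndrome, fell by 1.31 ± 0.26 on the log2 scale in WT, and Chd2, an epilepsy gene in humans, stood at -1.30 ± 0.22 (limma adjusted p = 0.00412). Chd2 shares 18.7% of its 31-base words with other genes, mainly an overlapping gene on its strand. Chd4 fell by 1.30 ± 0.28, from 11878, 13552 and 15392 in input to 5818, 7265 and 3953 in WT polysome libraries. Chd5 and Chd1 also fell in both genotypes. Chd8 had 6171, 5465 and 4699.7 in WT input and 4052, 3520.5 and 2484 in WT polysome libraries, and was the single member called in WT (-0.72 ± 0.20, limma adjusted p = 0.0335) and not in TG (-0.44 ± 0.20, limma adjusted p = 0.148). Chd3, Chd9 and Chd1l were not called in either genotype, at -0.57, -0.44 and -0.30 in WT. With the replicate block Chd3 was called in both genotypes, and Chd8 and Chd9 in TG.

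Among the H3K36 methyltransferases and related Setd proteins, 3 of 6 were lower in both WT (median -0.69) and TG (median -0.58). Nsd2 (chr5:33820725-33897975), which writes H3K36 dimethylation, had 8917, 11170.5 and 6099 in WT input and 3614, 2876 and 2724 in WT polysome libraries. Its TG values were 9958, 8885 and 6229 in input and 3311, 3027 and 2937 in polysome libraries, again without overlap. Its log2 difference was -1.47 ± 0.23 in WT (limma adjusted p = 0.00302) and -1.41 ± 0.23 in TG (limma adjusted p = 0.00328). Setd2, the enzyme of H3K36 trimethylation, had 4846, 5398 and 5945 in WT input and 2501, 2339 and 2113 in WT polysome libraries, a difference of -1.22 ± 0.18 (limma adjusted p = 0.00198). Nsd1 fell by 0.89 ± 0.18. Nsd3, Setd5 and Setd3 had differences of 0.054, -0.15 and -0.50 and were not called, although Setd3 passed in WT with the replicate block (limma adjusted p = 0.0137).

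Of the 7 genes of the Kmt2 and Setd1 families, which hold H3K4 methyltransferases, 2 were lower in WT (median -0.69) and 4 in TG (median -0.78). Not every one of the 7 need have that activity. Kmt2b (chr7:30568858-30588726) had 859.8, 1808 and 1763 in WT input and 419, 585 and 539 in WT polysome libraries. The input library numbered 1 was the lowest of its group, yet above all polysome libraries, and the log2 difference was -1.46 ± 0.36 (limma adjusted p = 0.0202). The call was lost without input library 2 or 3 or without polysome library 1 or 3, with limma adjusted p-values of 0.0591 to 0.0894. Kmt2b was also lower in TG, at -1.59 ± 0.36, with 889.6, 2232 and 2087 in input and 452, 662 and 508 in polysome libraries. There too the input library numbered 1 was the lowest of its group. Kmt2c, a catalytic subunit of enhancer-bound COMPASS-like complexes, fell by 0.84 ± 0.16 in WT and stood at -0.78 ± 0.16 in TG, called in both. Its paralogue Kmt2d was lower in TG, at -1.09 ± 0.30, and stood at -0.96 ± 0.30 in WT (limma adjusted p = 0.0520, and 0.00389 with the replicate block). Kmt2a had 2184, 6005 and 5209.7 in TG input and 1731, 2609 and 1038 in TG polysome libraries, overlapping groups with a log2 difference of -1.29 ± 0.38 (limma adjusted p = 0.0342). In WT it had 3275, 2296 and 3876 in input and 1929, 2061 and 1734 in polysome libraries (-0.69 ± 0.38, limma adjusted p = 0.239). Kmt2e, Setd1a and Setd1b were not called in either genotype. No Kmt2 or Setd1 gene was called lower with the coding length trend removed, while Setd1a and Kmt2e were then called higher in TG. Setd1a shares 51.5% of its 31-base words with Gm49388, a gene not in the table used here, so its value may hold reads of that gene.

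The H3K4 and H3K27 demethylases of the Kdm5 and Kdm6 families had 4 of 6 members lower in both genotypes (median -0.78 in WT, -0.74 in TG). Kdm5d (chrY:897788-956786), the Y-linked H3K4 demethylase, had 1073, 1224 and 1417 in WT input and 741, 640.4 and 517 in WT polysome libraries, with a log2 difference of -0.97 ± 0.19 (limma adjusted p = 0.00912). In TG it had 1192, 1289 and 1344 in input and 696, 772 and 508 in polysome libraries, and the difference was -0.97 ± 0.19 as well (limma adjusted p = 0.00786). Kdm5b, Kdm6a and Kdm5a fell by 0.86, 0.79 and 0.78 on the log2 scale in WT. Kdm5c, the X-linked relative of Kdm5d, stood at -0.37 ± 0.20, and the H3K27 demethylase Kdm6b at -0.020 ± 0.26, neither of them called. Once the coding length trend was removed, no Kdm5 or Kdm6 gene was called in either genotype.

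Of the Kdm3, Kdm4, Kdm7 and Kdm8 proteins, 2 of 8 were lower in both genotypes, Kdm4c and Kdm4a, both demethylases of H3K9 and H3K36. Kdm4c (chr4:74242497-74405860) had 2126, 2393 and 2409.6 in WT input and 1250.3, 1272 and 933 in WT polysome libraries. Its values in TG were 2103, 2354 and 1999 in input and 1153, 1493 and 844 in polysome libraries, so the fractions did not overlap in either genotype. Its log2 difference was -1.02 ± 0.20 in WT (limma adjusted p = 0.00917) and -0.92 ± 0.20 in TG (limma adjusted p = 0.0110). Kdm4a fell by 0.91 ± 0.17 in WT. Kdm3a, an H3K9 demethylase, stood at -0.97 ± 0.34 in both genotypes, not called without the replicate block (limma adjusted p = 0.0745 in WT) and called with it (limma adjusted p = 0.00335). The other 5 ranged from -0.53 to -0.056 in WT and were not called, although Kdm3b passed with the replicate block in both genotypes (limma adjusted p = 0.0180 in WT and 0.0101 in TG).

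Of the 4 Kdm1 and Kdm2 proteins, Kdm2a, an H3K36 demethylase that binds CpG islands, was lower in WT. It lies at chr19:4314419-4398285 and had 3294, 5176 and 4477 in WT input and 2463, 2861 and 1966 in WT polysome libraries, without overlap. The log2 difference was -0.82 ± 0.25 (limma adjusted p = 0.0458), and the call was lost when any of 5 of the 6 WT libraries was left out. In TG, Kdm2a and the H3K4 demethylase Kdm1b were lower, at -0.81 ± 0.25 and -0.78 ± 0.23. The CpG-island-binding Kdm2b stood at -0.39 ± 0.13 in WT and passed there with the replicate block (limma adjusted p = 0.0478). The TG values of Kdm2a were 3191, 5546 and 4947 in input and 2510.3, 3152 and 2036 in polysome libraries. The input library numbered 1 lay just above the highest polysome library. No Kdm1 or Kdm2 gene was called in either genotype with the coding length trend removed.

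Among the 9 Arid proteins, 3 were lower in WT (median -0.48) and 5 in TG (median -0.64). Arid4a (chr12:71015990-71098592), a retinoblastoma-binding protein of Sin3 corepressor complexes, had 1751, 2376 and 2535 in WT input and 1124, 1239.7 and 1015 in WT polysome libraries. In TG it had 1739, 2888 and 2361 in input and 941, 1442 and 921 in polysome libraries, and no polysome library reached an input library in either genotype. Its log2 difference was -0.97 ± 0.23 in WT (limma adjusted p = 0.0186) and -1.08 ± 0.23 in TG (limma adjusted p = 0.00990). The WT call was lost without input library 2 or 3 or polysome library 3. The BAF subunits Arid1b and Arid1a fell by 0.80 ± 0.17 and 0.68 ± 0.21 in WT, and the PBAF subunit Arid2 stood at -0.37 ± 0.16, not called. Arid4b and Arid5b were called in TG alone. With the replicate block Arid4b, Arid5b and Arid2 were called in both genotypes (for Arid2, limma adjusted p = 0.0400 in WT and 0.0168 in TG), and Arid3a in TG. Arid3b and Arid5a were at -0.0081 and -0.0019 in WT. Removal of the coding length trend left no Arid gene called in either genotype.

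The H4K20 methyltransferases and the remaining Setd proteins were split. Kmt5a (chr5:124439930-124462308), which writes H4K20 monomethylation, had 1105, 1738 and 1332 in WT input and 536, 693 and 789 in WT polysome libraries. Those in TG were 1081, 1874 and 1399 in input and 553, 721 and 634 in polysome libraries, so every polysome library lay below every input library in both genotypes. Its log2 difference was -1.04 ± 0.23 in WT (limma adjusted p = 0.0151) and -1.16 ± 0.23 in TG (limma adjusted p = 0.00814). The WT call was lost without input library 2 or 3, at limma adjusted p-values of 0.0541 and 0.0536. The enzymes of H4K20 di- and trimethylation, Kmt5b and Kmt5c, were at -0.28 and -0.064 in WT, not called. Setd7 (chr3:51515319-51560879), which methylates H3K4 and many non-histone proteins, was the member that rose. It had 4175, 4821 and 5121 in WT input and 6912, 7307 and 6449.6 in WT polysome libraries, with a log2 difference of 0.55 ± 0.15 in WT (limma adjusted p = 0.0303) and 0.51 ± 0.15 in TG (limma adjusted p = 0.0333). In TG it had 4798, 5550.4 and 4443 in input and 6468, 7986 and 6679 in polysome libraries. Its fractions did not overlap in either genotype, and its call in WT was lost when any single WT library was left out, with limma adjusted p-values of 0.0612 to 0.0920. Setd4 had 76.4, 96.3 and 79.2 in WT input and 123, 143 and 143 in WT polysome libraries, a difference of 0.70 ± 0.23 (limma adjusted p = 0.0655, and 0.0350 with the replicate block).

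**Figure D3:**
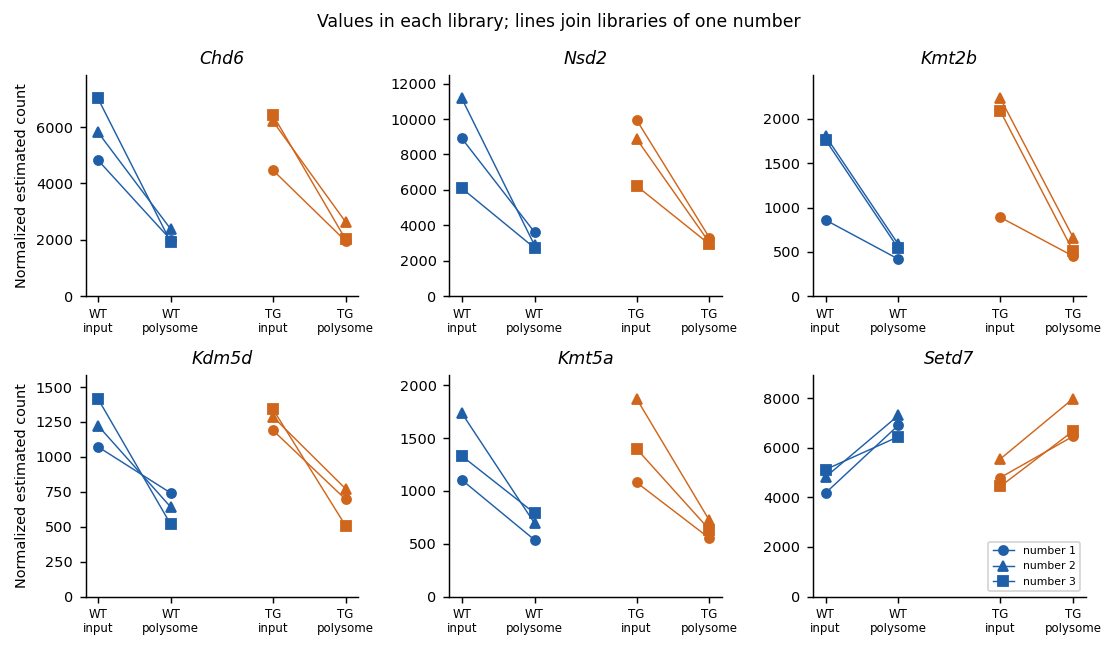
Normalized estimated counts (y axis, from 0) of 6 members in each library, WT and Shank3 TG, with input and polysome side by side; a line joins libraries of the same number. In Chd6, Nsd2, Kmt2b, Kmt5a and Kdm5d all polysome points of WT lie below all input points, and in Setd7 they lie above.

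The members called in WT were largely those called in TG. Of the 25 members called in WT and the 29 called in TG, 24 were called in both (23 lower, 1 higher), which is 96% of the WT calls and 82.8% of the TG calls. The same overlap over all genes was not counted, so it cannot be called particular to these members. Chd8 was called in WT alone, and Arid4b, Arid5b, Kdm1b, Kmt2a and Kmt2d in TG alone, but for none of the 57 did the interaction, the test of that difference itself, pass the threshold. Across the 57 members the WT and TG differences had a Pearson r of 0.94 and a Spearman rho of 0.95, as a description. They came from separate libraries, but from the same model with a shared estimate of the spread, so the calls were not independent. Same-numbered libraries of the 2 genotypes also deviated together, and members share the gene properties described next. With the replicate block, 35 members were called in WT (33 lower, 2 higher) against a background of 29.8%, and 37 in TG (35 lower, 2 higher) against 33.2%, and the 2 called higher were Setd7 and Setd4 in WT and Setd7 and Setd1a in TG.

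Members have long coding sequences, and length moved with the difference between fractions in all genes. The longest annotated coding sequence of a member had a median of 4338 bases, against 1404 in the other 15002 coding genes tested, and ranged from 1092 bases in Kmt5a to 16764 in Kmt2d. The Spearman rho of coding length with the WT difference was -0.55 across the other coding genes and -0.45 across the members, and -0.54 and -0.50 in TG, given as descriptions across genes. Among other genes with 1 to 2 kb of coding sequence the median difference in WT was 0.017, against -0.060 in the 10 members of that length. At 2 to 4 kb it was -0.30 against -0.53 (16 members), at 4 to 8 kb -0.60 against -0.72 (23 members), and over 8 kb -0.81 against -0.92 (8 members). The other genes of those 4 ranges were called lower in 5%, 16.3%, 37% and 47.2% of cases, and the members in 1, 5, 13 and 5 cases. In the 4 to 8 kb range, 13 of 23 members lay below the median of the other genes.

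**Figure D4:**
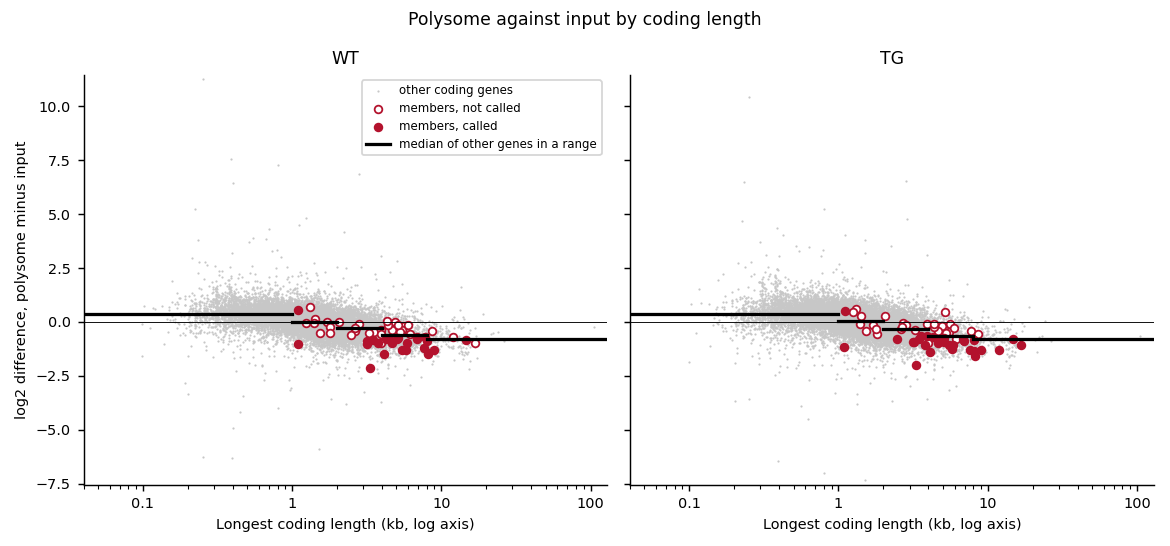
Log2 difference of polysome minus input (y axis) against longest coding length in kb (x axis, log scale) for members (red, filled where called) and other coding genes (grey), in WT and TG. Horizontal lines are the medians of other genes within a length range, which fall from 0.35 under 1 kb to -0.81 over 8 kb in WT, and most members lie near the line of their range, with Adnp and Kmt5a well below it.

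When a smooth trend on coding length was removed from each library, an alternative added after the data were seen, 7 members were called in WT and 7 in TG, 4 of them in both, where 5.67% and 8.51% of the 15059 genes in that fit were called. The members' median difference was then -0.084 in WT and -0.13 in TG. The sign changed for 21 members in WT and 16 in TG, among them members called without that removal, Kmt2c at 0.15 in WT and 0.23 in TG, and in WT Arid1a at 0.037 and Chd8 at 0.044, none of them called on this scale. With a trend on exonic length removed instead, 14 members were called in WT (10.3% of all genes) and 17 in TG (13.9%). Adnp (-1.76 ± 0.29, limma adjusted p = 0.00703), Kmt5a (-1.18 ± 0.24, limma adjusted p = 0.0182), Chd6 (-0.69 ± 0.14, limma adjusted p = 0.0192) and Kdm4a (-0.52 ± 0.13, limma adjusted p = 0.0430) were lower in WT and were called in TG as well. Nsd2 at -0.97 and Kdm4c at -0.64 were lower in WT, and Nsd3, an H3K36 methyltransferase, was higher at 0.58 ± 0.15 (limma adjusted p = 0.0485). In TG, Setd2 was lower at -0.50, and Setd1a at 1.08 and Kmt2e at 0.56 were higher. Kmt5a, the member with the shortest coding sequence, and Adnp were the only members with a difference under -1 on this scale in WT.

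Proteins that act with the members or beside them differed in how many were called, and 8.59% of all genes tested were called lower in WT. Coding length was not taken into account in the counts of these lists. Of 19 further remodellers of the ISWI, INO80, SRCAP and related families, 10 were lower and none higher in WT (median -0.87), among them the nucleosome-exchange ATPase Ep400 (-1.51 ± 0.18, limma adjusted p = 0.000494) and the NURF subunit Bptf (-1.48 ± 0.19, limma adjusted p = 0.00116). Of 12 NuRD subunits other than Chd proteins, none was called (median -0.25), and of 25 BAF and PBAF subunits other than Arid proteins, 3 were lower (median -0.10), led by the ATPase Smarca4 at -1.19 ± 0.20. Of 13 COMPASS core and partner subunits, 2 were lower, Hcfc1 at -1.11 and the menin gene Men1 at -0.65. The shares called lower in the BAF and PBAF list and in the COMPASS list lay not far above that 8.59%. Of 7 HP1 proteins and Adnp partners, the corepressor Trim28 (-1.41 ± 0.27) and Champ1 (-0.99 ± 0.21) were lower.

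Other writers and erasers of histone and DNA marks were counted in the same way. In PRC2, which writes H3K27 methylation, the catalytic subunit Ezh2 was lower at -2.46 ± 0.22 (limma adjusted p = 5.65e-05) and Phf1 higher at 0.66 ± 0.18 among 12 genes. Of 17 further lysine methyltransferases, 5 were lower, counting Ezh2, and the others were Ehmt1 (-1.26), Ash1l (-0.90), Setdb1 (-0.73) and Prdm2 (-0.73). Of 12 other JmjC proteins 1 was lower, the Y-linked Uty at -0.68, and that share, like the 1 lower gene of 12 in PRC2, is near the 8.59% of all genes called lower. Of 15 genes of DNA methylation and methyl-CpG binding, 3 were lower, the methyltransferases Dnmt1 (-1.45) and Dnmt3a (-1.26) and the dioxygenase Tet1 (-1.16). Of 24 histone acetyltransferases and deacetylases, 4 were lower, Kat6b the most at -2.49 ± 0.22 (limma adjusted p = 4.46e-05). None of these further lists had more than 1 gene called higher in WT without the replicate block. With the replicate block, where 15.9% of all genes were called lower, 16 of the 19 further remodellers, 1 of the 12 NuRD subunits, 5 of the 25 BAF and PBAF subunits, 4 of the 13 COMPASS subunits, 7 of the 15 DNA methylation genes and 3 of the 12 other JmjC proteins were lower in WT. Among the 7 HP1 proteins and Adnp partners, 3 were lower and 2 higher in WT with the block. Also called higher in WT with it were 2 BAF and PBAF subunits, 1 PRC2 gene and 1 DNA methylation gene, against 13.9% of all genes.

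The summed values of RNAs retained in the nucleus and of astrocyte markers were also lower in polysome than in input libraries, though not every gene of either list was. The 7 nuclear RNAs listed summed to 20877 to 30521 in WT input and 9186 to 11145 in WT polysome libraries, and to 16985 to 30664 and 6794 to 9528 in TG. In WT, 2 of the 7, Mirg and Rian, were lower. The 5 astrocyte markers summed to 66199 to 72563 in WT input and 33371 to 48186 in WT polysome libraries, with 2 of 5 lower, Slc1a3 and Aldh1l1. Slc1a3 made up most of that sum. Aqp4 stood at -0.16, and Gfap and Gjb6 were at 0.35 each, not called, and the median over the 5 was -0.16. With the replicate block 1 astrocyte marker was called higher in WT and 2 in TG. Of the 8 markers of medium spiny neurons none was called without the block, and with it 2 were higher and 1 lower in WT, and 4 higher and 1 lower in TG. No listed marker was at 0 in any library. The part of nuclear and astrocytic RNA in the members' differences was not tested. Both fractions are bulk preparations, so the cell type that a member's RNA came from is not known.

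Between genotypes, the set showed no called difference. In input, none of the 57 members passed in either direction, with a background of 0% of 16341 genes called by limma and 0.49% at an unadjusted p under 0.05, where 0 members passed. In polysome RNA none passed either, with 0% of 16312 genes called and 0.325% at an unadjusted p under 0.05, again with 0 members. The interaction gave 0 members, 0% of 16962 genes called and 0.554% at an unadjusted p under 0.05. With the replicate block no member was called in any of the 3 comparisons, and 0.00613% of the genes tested in polysome RNA, which is 1 gene, Shank3, passed. The members' log2 differences, TG minus WT, ranged from -0.40 to 0.41 in input (median 0.048) and from -0.19 to 0.39 in polysome RNA (median 0.039), with a median SE of 0.20 in each. Of the 57, 37 in input and 39 in polysome RNA were higher in TG. Differences of that size could not be told from the spread between libraries.

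Chd8, a Chd remodeller linked to autism in humans, was among the smallest p-values in input. It had 6171, 5465 and 4699.7 in WT and 4754, 4695 and 4451 in TG input libraries, overlapping groups with a log2 difference of -0.22 ± 0.15 (limma adjusted p = 1.00). Arid3a, a DNA-binding transcription factor, had 142, 149 and 177 in WT and 184, 231 and 176 in TG input libraries (0.33 ± 0.22, limma adjusted p = 1.00). Kdm2b, which brings a variant Polycomb complex to CpG islands, had 812, 825 and 844 in WT and 768, 667 and 701 in TG input libraries. Its TG libraries were all below its WT libraries, and its difference was -0.22 ± 0.15 (limma adjusted p = 1.00). Its exons overlap exons of Rnf34 on the opposite strand. Exons of Chd8, Chd1l, Nsd2, Setd7, Kmt2a and Setd1a also overlap exons of other genes on the opposite strand, and since the strand setting of the counting is not given in the sources used here, reads of such pairs cannot be told apart.

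In polysome RNA, Setd1a had 825, 769 and 1105 in WT and 1049, 1459 and 1027 in TG libraries, with overlapping groups and a log2 difference of 0.39 ± 0.21 (limma adjusted p = 1.00). In input it had 1087, 823 and 1016 in WT and 682, 983 and 898 in TG libraries, and its interaction was 0.58 ± 0.30 (limma adjusted p = 1.00). Setd4 had 123, 143 and 143 in WT and 162, 188 and 157 in TG polysome libraries, without overlap, a difference of 0.31 ± 0.19 (limma adjusted p = 1.00). Chd1l, a remodeller recruited to DNA breaks by poly(ADP-ribose), had 411, 420.1 and 295 in WT and 444, 408 and 404 in TG polysome libraries (0.17 ± 0.19). The interactions of Kdm2b and Kdm8 were 0.28 ± 0.19 and 0.54 ± 0.46, both with limma adjusted p-values of 1.00.

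**Figure D5:**
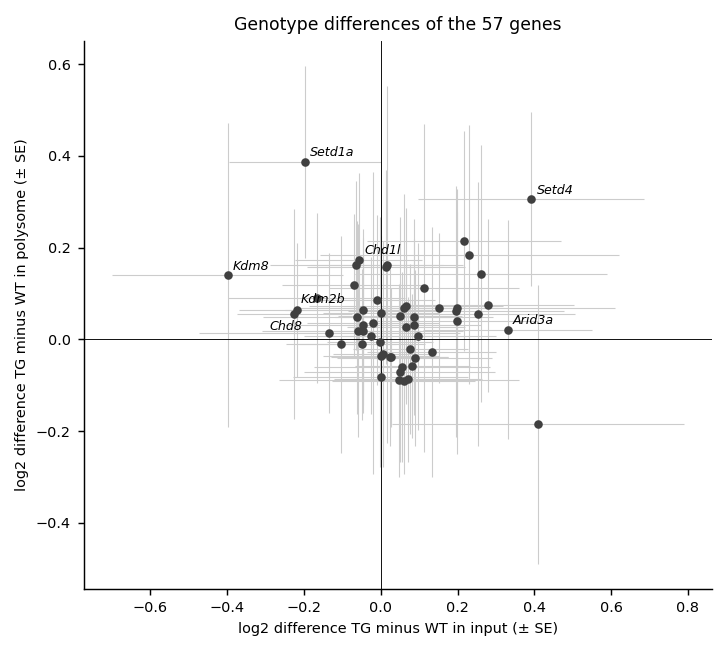
Log2 difference TG minus WT of each member in polysome RNA (y axis) against that in input RNA (x axis), from 3 libraries a group, with the members of smallest p labelled. Points lie between -0.40 and 0.41 on the x axis and between -0.19 and 0.39 on the y axis, and no member passed a limma adjusted p under 0.05 on either.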

How the data were processed

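Per the labels' protocols, the library kit was for stranded total RNA, and the tools named are Salmon 1.1.0, R 3.6.2 and DESeq2 1.26.0 on GRCm38, per the submitters' processing notes. The sources used here give no annotation, strand setting or normalization model. Each deposited value is a signal, the estimated count of a gene after the authors' normalization, and is fractional. Although small values clustered at multiples of a single read's worth, only 32.5% to 46.1% came within 0.1 read of a whole number, so reads were not recovered and no count test was run. Depth was estimated from that step, which was 1.26 to 1.81 in the input libraries, compared with 0.612 to 0.84 in the polysome libraries.

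Of the gene identifiers, 21465 matched GENCODE M21, which gave symbols, coordinates, lengths and sequences. Of the members, 7 share over 10% of their 31-base words with other genes and 14 overlap an exon of another gene of the table on the opposite strand.

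Limma 3.58.1 in R 4.3.3 was fitted to log2(value + 1) with a variance trend, over genes with a value of at least 10 in at least 3 fitted libraries, and p-values were Benjamini-Hochberg adjusted over all genes tested with a threshold of 0.05. Log2 differences on this scale understate changes of low genes. Genotype was fitted in 6 libraries of each fraction. Polysome against input and the interaction were fitted in all 12. Fits were tested on simulated data. Same-numbered libraries correlated at 0.28 to 0.55 in their deviations from group means (12 pairs), and libraries of different numbers at -0.41 to -0.04 (24 pairs). The pairing thus comes from the values and the numbering, whose meaning the labels leave unstated. A replicate block was fitted as an alternative.

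The members, role groups and lists were chosen with earlier results of these data known. Members named by rule were, for each role group, the called genes with the largest fall and the largest rise between fractions in WT, and the 3 smallest p-values of each genotype test. Other members given with values were chosen after their values were seen. Alternatives were TMM scaling, pseudocounts of 0.5 and 5, no filter, a minimum of 50, no variance trend, another set of libraries, removal of a length trend (lowess, span 0.3) and each library left out.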

Additional observations from a re-analysis of the deposited data

How the results depend on the processing

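The count of members called between polysome and input was 25 in WT and 29 in TG. It was 14 and 17 with the trend on exonic length removed, and 7 and 7 with the trend on coding length removed, an alternative chosen after seeing the data. It ranged from 11 to 21 in WT and from 16 to 32 in TG when a library was left out. Under the other settings run it stayed within 1.5 times of the main count, and with the replicate block it was 35 and 37. Summing Adnp with Gm20716 took its WT difference from -2.16 to -0.13 (limma adjusted p = 0.555). Setd7 and Kdm2a lost their WT calls under 10 and 11 of 19 alternatives, with adjusted p-values up to 0.107 and 0.284, and Kmt2b, Arid4a, Kdm5d and Kmt5a under 5, 4, 3 and 2. Chd6, Kdm4c and Nsd2 kept theirs under all 19. Members named by rule kept their sign under the settings run. Of all 57 members, 21 in WT and 16 in TG changed sign with the coding length trend removed, called members among them (Arid1a, Chd8 and Kmt2c in WT, Kmt2c in TG), and no called member did under the other settings run. No member was called for genotype or the interaction under any setting run. With 3 libraries a group, the median SE of a member was 0.20 for genotype and 0.30 for the interaction. Shank3 itself, at a log2 difference of 1.57 ± 0.49 (SE) in input, did not pass there with or without the block. Its SE was larger than the median SE of a member. Member differences above these SEs could likewise go undetected. The cause of the changes with single libraries was not tested.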
